A study of Mus musculus with 2 samples.

Results

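The genes described here form the IGF, insulin, mTOR and FoxO axis of skeletal muscle: the growth factor gene Igf1, the receptors and adaptors that read it, the IGF binding proteins, and the PI3K-AKT, TSC-mTOR and FoxO branches, together with the sestrin and REDD genes that restrain mTOR. The 38 genes were taken by symbol from the deposited table of 34745 Ensembl genes, and all 38 were found. RNA of the gastrocnemius, a calf muscle, was sequenced in 1 library from CIPC-scko mice and 1 library from CIPC-flox/flox mice, both on a C57BL/6 background and 8 weeks old. Cipc encodes an inhibitor of CLOCK and BMAL1, the transcription factor pair that drives the circadian clock. By the series title, scKO stands for loss of the gene in satellite cells, the stem cells of muscle, while flox/flox mice carry the loxP-flanked alleles. The Cre driver, the number of animals behind each library and the time of day of dissection are not given in the labels, and neither set of labels names mdx, the dystrophic strain in the series title.

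Insulin and IGF-1 bind receptor tyrosine kinases, which phosphorylate the docking proteins IRS1 and IRS2. These recruit PI3K, whose lipid product brings PDK1 and AKT to the membrane. AKT inhibits the TSC complex, so that RHEB can activate mTORC1, the kinase complex that drives protein synthesis through S6 kinases and the 4E-BPs. AKT also holds FoxO factors out of the nucleus, where in muscle they switch on genes of protein breakdown. Sestrins and REDD proteins lower mTORC1 activity under stress.

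The scKO library held 13842100 counts over 16155 genes and the flox/flox library 14727219 counts over 16375 genes. Transcripts of the mitochondrial genome made up 25.7% of either library, and the 38 axis genes 0.233% in scKO and 0.237% in flox/flox. Cipc itself had 111 counts in scKO, against 658 in flox/flox, 5.72-fold lower in scKO. In which cells of the whole muscle Cipc was lower was not tested. Markers of muscle fibres were abundant in both libraries: the fast myosin gene Myh4 had 605139 counts in scKO and 700136 in flox/flox. With 1 library per genotype no test between genotypes is possible, and every difference below is between these libraries. Ratios are those of scKO over flox/flox after TMM scaling of the library sizes, on a log2 scale, and the 95% intervals after them (exact conditional binomial, Clopper-Pearson) cover counting error only.

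Most of the axis differed little between the libraries. All 38 genes had a summed count of at least 20, the minimum used, and their sums lay between 94 and 17907. A gene was called where the ratio was at least 1.5-fold in either direction and its interval excluded 1. By that rule 1 of the 38 was called lower in scKO, Irs1, and 0 were called higher. Over all 12662 features with enough counts, 4.12% were called lower and 3.47% higher, so the members' counts were at or under the background. Among the 9797 features with a summed count of at least 100, a depth that 37 of the members reach, 2.81% were lower and 2.59% higher. At the stricter 2-fold rule 0 of the 38 were called in either direction, beside 1.91% lower and 1.49% higher over all features. Intervals lay wholly below 0 for 6 members, beside 12.3% of all features, and wholly above 0 for 4, beside 12.8%. The median log2 ratio of the 38 was −0.059, beside 0.0021 over all features. Within 1.2-fold lay 33 of the 38 genes (86.8%), beside 64.8% of all features. At a summed count of at least 100 it was 32 of 37 genes (86.5%), beside 73.9%. A shared minimum does not match depth above it, and counting error spreads the ratios of thinly counted genes more. The members outside that band were Irs1, Pik3ca, Ddit4, Ddit4l and the thinly counted Sesn2.

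**Figure D1:**
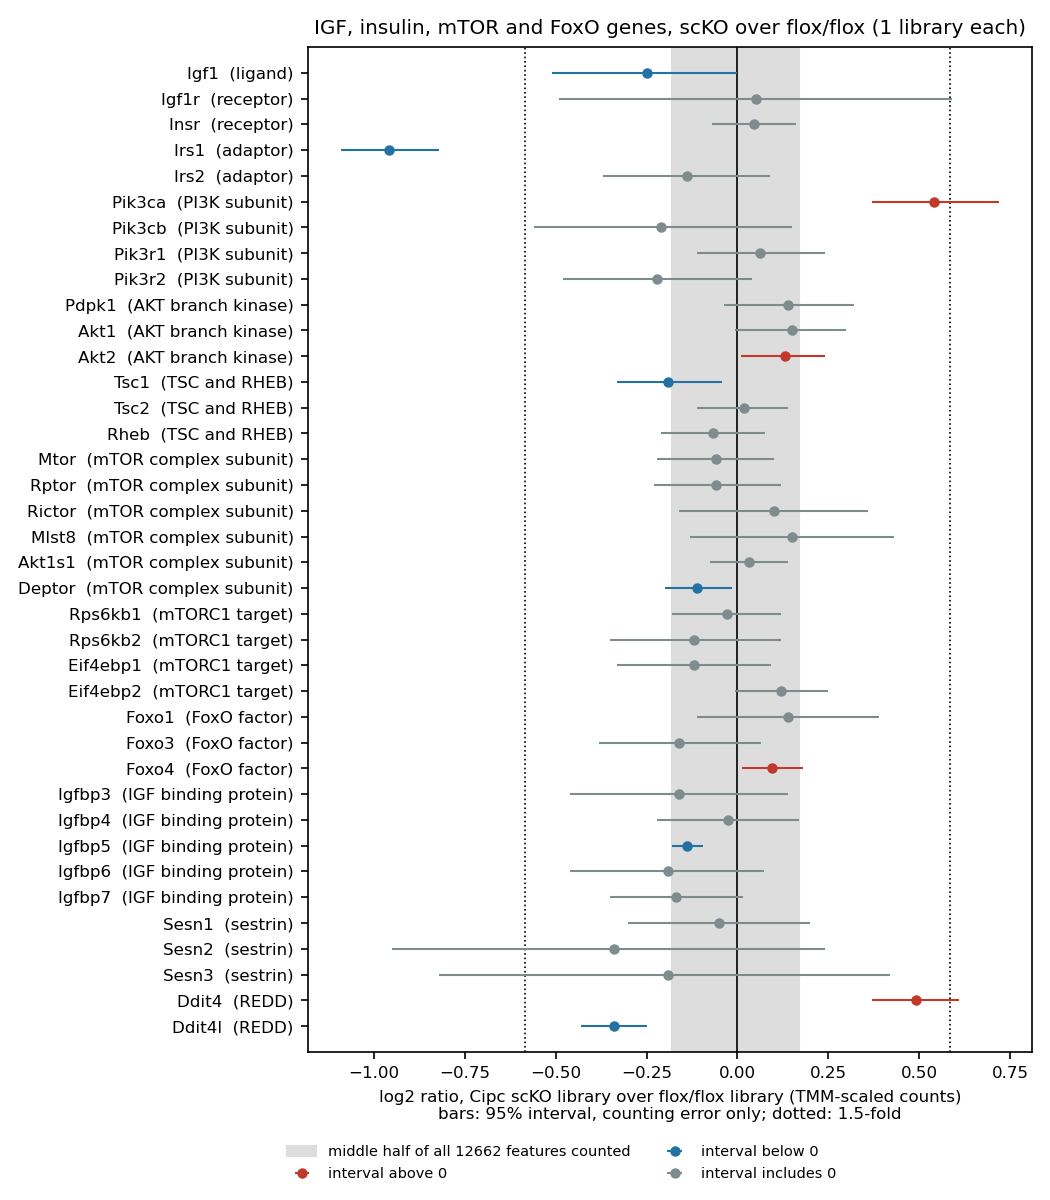
Log2 ratio of each of the 38 genes in the scKO library over the flox/flox library (x axis; bars are 95% intervals for counting error, dotted lines mark 1.5-fold, the grey band runs from the lower to the upper quartile of all features). Irs1 at −0.96 is the 1 gene past a dotted line; Pik3ca at 0.54 and Ddit4 at 0.49 come nearest to it on the other side.

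The E-box CACGTG is the element that CLOCK and BMAL1 bind, and its place in the promoters of the axis is shown here because Cipc encodes their inhibitor. RefSeq promoter windows on GRCm38.p6, running from 250 bases before to 50 bases after a transcription start, were matched by symbol for 33 of the 38 genes, in 40 windows. The motif, which reads the same on both strands, occurred in 3 of these windows, those of Irs1, Irs2 and Rheb, and in 7.15% of all 32851 windows. Each is printed 5′ to 3′ with the E-box in capitals and 20 bases on either side. The Irs1 stretch lies at chr1:82291529-82291574, the Irs2 stretch at chr8:11008948-11008993 and the Rheb stretch at chr5:24842432-24842477, each on the minus strand.
Irs1: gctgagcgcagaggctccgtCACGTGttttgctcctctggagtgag
Irs2: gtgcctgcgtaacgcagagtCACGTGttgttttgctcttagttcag
Rheb: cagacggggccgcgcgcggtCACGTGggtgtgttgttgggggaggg
The E-box began 115 bases before the RefSeq start in Irs1, 44 bases before it in Irs2 and 96 bases before it in Rheb. The GENCODE annotation places some starts elsewhere. There Rheb begins at 24842624, so its stretch lies inside the gene, and Irs2 begins at 11008458, farther from its stretch. In the counts Irs1 was lower in scKO, while Irs2 (log2 ratio −0.14, −0.37 to 0.089) and Rheb (−0.067, −0.21 to 0.076) had intervals that include 0. The FoxO element GTAAACA, searched on both strands, occurred in windows of Akt1 and Sesn1 and in 3.65% of all windows. The ATF4 composite element TGATGNAA, where N is any base, occurred in a window of Akt2 and in 3.97% of all windows. No member's windows held more than 1 of these motifs.

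Neither the ligand gene nor the receptor genes were called. Igf1, the growth factor itself, had 233 counts in scKO and 288 in flox/flox (1.28 FPKM in scKO, 1.49 in flox/flox; log2 ratio −0.25, −0.51 to −0.00040). That interval ends at the edge of 0 and includes it when libraries are scaled by total counts. Insr, the insulin receptor gene, had 1231 counts in scKO and 1236 in flox/flox, with a log2 ratio of 0.045 (−0.070 to 0.16). Igf1r, the IGF-1 receptor gene, had 60 counts in each library (0.051, −0.49 to 0.59). The receptors' balance was the same in both libraries, Insr taking 95.4% of their joint counts in each.

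Of the docking proteins, Irs1 was lower in the scKO library and Irs2 was not called. Irs1 (ENSMUSG00000055980) occupies 82233101 to 82291416 on chromosome 1 of GRCm38, minus strand, with 2 exons. It had 669 counts in scKO, against 1345 in flox/flox, and 5.29 FPKM in scKO, against 9.99 in flox/flox. The ratio was 1.94-fold lower in scKO (log2 ratio −0.96, −1.09 to −0.82), lower than that of all but 2.57% of features. Irs2, its paralog, had 296 counts in scKO and 338 in flox/flox. Irs1 supplied 69.3% of the joint Irs1 and Irs2 counts in scKO, against 79.9% in flox/flox. The ratio of Irs1 to Irs2 within a library needs no scaling between libraries, and it was 0.568 times as large in scKO as in flox/flox (0.472 to 0.684). Against Insr, the receptor upstream, the within-library ratio of Irs1 was 0.499 times as large in scKO (0.441 to 0.565). Of the 2 genes within 200 kb with enough counts, Rhbdd1 stood at −0.11 (−0.45 to 0.23) and was not called. Col4a4, with 34 counts in scKO and 57 in flox/flox, stood at −0.69 (−1.35 to −0.057) and was called lower. The annotated opposite-strand gene Gm9747, which shares 2822 bases of Irs1's exons, had 0 counts in both libraries.

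The whole Irs1 window, at chr1:82291390-82291689 on the minus strand, is given because Irs1 is the gene that was called; it is 71.3% G and C, and the capitals mark its E-box.
Irs1 promoter: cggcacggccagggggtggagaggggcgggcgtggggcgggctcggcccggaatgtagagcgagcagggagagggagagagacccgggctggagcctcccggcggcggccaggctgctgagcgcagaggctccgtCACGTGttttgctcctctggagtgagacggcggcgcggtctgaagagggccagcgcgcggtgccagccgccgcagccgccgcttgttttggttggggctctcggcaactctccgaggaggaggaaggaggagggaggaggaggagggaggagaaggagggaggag

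Among the 4 PI3K genes of the axis, the catalytic subunit gene Pik3ca was the 1 with an interval above 0. Pik3ca, which encodes p110α, the catalytic subunit that insulin signalling relies on most, had 633 counts in scKO and 450 in flox/flox, and 3.39 FPKM in scKO and 2.26 in flox/flox. Its ratio of 1.46 (log2 ratio 0.54, 0.37 to 0.72) lay just under the 1.5-fold line under every scaling, at 1.448 to 1.497. Pik3cb, the gene of the catalytic subunit p110β, had 123 counts in scKO and 147 in flox/flox (−0.21, −0.56 to 0.15). The regulatory subunit genes Pik3r1 (p85α) and Pik3r2 (p85β) stood at 0.062 (−0.11 to 0.24) and −0.22 (−0.48 to 0.039). Pik3cd, the gene of a further catalytic subunit, p110δ, is not among the 38 but also had an interval above 0, with 287 counts in scKO and 230 in flox/flox (0.37, 0.12 to 0.63). The within-library ratio of Pik3ca to Pik3cb was 1.68 times as large in scKO (1.27 to 2.22), and that of Pik3ca to Pik3r1 1.40 times as large (1.17 to 1.66). Pik3ca occupies 32397671 to 32468486 on chromosome 3, plus strand, and the 5 genes within 200 kb with enough counts had log2 ratios between −0.20 and 0.23, none of them called.

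The AKT branch had small positive ratios. Pdpk1, the gene of the kinase PDK1 that activates AKT, had 524 counts in scKO and 492 in flox/flox (0.14, −0.038 to 0.32). Akt1 had 714 counts in scKO and 668 in flox/flox (0.15, −0.0070 to 0.30). Akt2, the isoform tied most closely to glucose uptake, had 1239 counts in scKO and 1177 in flox/flox (0.13, 0.0090 to 0.24). The Akt2 interval includes 0 when DESeq2 size factors are used. With total-count scaling the intervals of Pdpk1, Akt1 and Akt2 all lay above 0. Akt1 supplied 36.6% of the joint Akt1 and Akt2 counts in scKO and 36.2% in flox/flox, so their balance was alike.

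In the TSC and RHEB step, Tsc1, which stabilises the complex, had 730 counts in scKO and 861 in flox/flox (−0.19, −0.33 to −0.043). Tsc2, which carries the GTPase-activating domain that switches RHEB off, had 1029 counts in scKO and 1052 in flox/flox (0.019, −0.11 to 0.14). The ratio of Tsc1 to Tsc2 was 0.867 times as large in scKO (0.759 to 0.990). Tsc2 shares 693 bases of exons with Pkd1 on the opposite strand, which had 572 counts in scKO and 520 in flox/flox; whether the counting used strand is not given. Rheb had 771 counts in scKO and 837 in flox/flox.

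The 6 mTOR complex genes had log2 ratios between −0.11 and 0.15. The kinase gene Mtor had 599 counts in scKO and 647 in flox/flox (−0.060, −0.22 to 0.10). Rptor, which encodes raptor of mTORC1, stood at −0.058 (−0.23 to 0.12), and Rictor, its counterpart in mTORC2, at 0.10 (−0.16 to 0.36). Mlst8, a subunit of both complexes, stood at 0.15 (−0.13 to 0.43). Of the inhibitory subunits, Akt1s1 (PRAS40) stood at 0.031 (−0.075 to 0.14). Deptor had 1752 counts in scKO and 1958 in flox/flox (−0.11, −0.20 to −0.015); with total-count scaling that interval includes 0. The summed level of the 6 genes was 345 CPM in scKO and 344 in flox/flox.

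The 4 mTORC1 target genes all had intervals that include 0 under TMM scaling, while that of Eif4ebp2 lay above 0 with total-count scaling. The S6 kinase genes Rps6kb1 and Rps6kb2 stood at −0.029 (−0.18 to 0.12) and −0.12 (−0.35 to 0.12). The first of them turned to 0.0094 with total-count scaling. The 4E-BP genes, whose products block the cap-binding protein eIF4E, stood at −0.12 (Eif4ebp1, −0.33 to 0.093) and 0.12 (Eif4ebp2, −0.0074 to 0.25). They were among the more abundant genes of the axis, Eif4ebp1 with 26.4 FPKM in scKO and 27.8 in flox/flox.

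Foxo4 was the most abundant of the 3 FoxO genes in both libraries, and none of the 3 was called. It had 37.6 FPKM in scKO and 34.2 in flox/flox, 18.6 times the FPKM of Foxo3 in scKO and 15.6 times in flox/flox. Its log2 ratio was 0.096 (0.012 to 0.18). Foxo1 had 272 counts in scKO and 256 in flox/flox (0.14, −0.11 to 0.39), and Foxo3 had 314 in scKO and 363 in flox/flox (−0.16, −0.38 to 0.064). Whether Foxo1 or Foxo3 stood higher per length depended on the length used, since Foxo1 had 1.12 times the FPKM of Foxo3 in scKO but 0.757 times its level per kb of merged exons.

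The 5 IGF binding protein genes, whose products hold IGFs in the tissue, all had log2 ratios at or below −0.026 under TMM scaling, and 4 of the 5 intervals included 0. Igfbp5, the most abundant gene of the axis in both libraries, had 8368 counts in scKO and 9539 in flox/flox, and 60.8 FPKM in scKO and 65.2 in flox/flox (−0.14, −0.18 to −0.095). Igfbp7 had 465 counts in scKO and 541 in flox/flox (−0.17, −0.35 to 0.014), Igfbp6 had 216 in scKO and 256 in flox/flox (−0.19, −0.46 to 0.073) and Igfbp3 had 174 in scKO and 202 in flox/flox (−0.16, −0.46 to 0.14). Igfbp4 stood at −0.026 (−0.22 to 0.17) and turned to 0.012 with total-count scaling. Connective tissue cells are a source of these proteins in muscle. Of 13 markers of fibro-adipogenic progenitors with enough counts, 9 had intervals below 0, beside 12.3% of all features, and none above, beside 12.8%. Their log2 ratios lay between −0.62 and 0.08, and their summed level was 1103 CPM in scKO and 1240 in flox/flox. Their part in the Igf1 and Igfbp values was not tested. In whole muscle, fewer cells of a type and less RNA per cell cannot be told apart.

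The intervals of the 3 sestrin genes all include 0. Sesn1 was the most abundant of them, with 5.58 FPKM in scKO and 5.63 in flox/flox, and had 257 counts in scKO and 276 in flox/flox (−0.052, −0.30 to 0.20). Sesn2, whose product senses leucine, had 44 counts in scKO and 58 in flox/flox (−0.34, −0.95 to 0.24), and Sesn3 had 43 in scKO and 51 in flox/flox (−0.19, −0.82 to 0.42).

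The REDD genes had ratios of opposite sign. Ddit4, which encodes REDD1, a protein induced by stress and glucocorticoids that inhibits mTORC1, had 1306 counts in scKO and 964 in flox/flox (log2 ratio 0.49, 0.37 to 0.61). Ddit4l, which encodes REDD2, a relative abundant in muscle, had 1815 counts in scKO and 2374 in flox/flox (−0.34, −0.43 to −0.25). Neither reached 1.5-fold. Their order by level was reversed between libraries: Ddit4 had 56.0 FPKM in scKO, above the 40.1 of Ddit4l there, and 38.8 FPKM in flox/flox, below the 49.3 of Ddit4l there. Per kb of merged exons the order was reversed likewise, with 53.8 CPM for Ddit4 and 45.0 for Ddit4l in scKO, against 37.3 CPM for Ddit4 and 55.3 for Ddit4l in flox/flox. The within-library ratio of Ddit4 to Ddit4l was 1.77 times as large in scKO (1.60 to 1.97). The summed level of both was nearly the same, 225 CPM in scKO and 227 in flox/flox.

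Their promoter windows are given as those of relatives with ratios of opposite sign; neither held any of the 3 motifs searched, so no base is capitalised. Ddit4 lies on chromosome 10 (window chr10:59951721-59952020, minus strand, 69.0% G and C) and Ddit4l on chromosome 3 (chr3:137623422-137623721, plus strand, 65.7%). In the GENCODE annotation Ddit4l begins at 137621612, so its RefSeq window lies inside that gene. The 5 genes around Ddit4 with enough counts had log2 ratios between −0.36 and 0.22, and the 2 around Ddit4l between −0.026 and −0.012, none of them called.
Ddit4: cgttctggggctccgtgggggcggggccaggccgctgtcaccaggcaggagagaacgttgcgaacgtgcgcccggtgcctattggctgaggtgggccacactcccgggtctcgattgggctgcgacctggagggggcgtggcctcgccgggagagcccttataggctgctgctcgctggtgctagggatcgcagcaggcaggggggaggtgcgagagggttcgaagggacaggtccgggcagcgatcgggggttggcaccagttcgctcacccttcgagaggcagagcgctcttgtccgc
Ddit4l: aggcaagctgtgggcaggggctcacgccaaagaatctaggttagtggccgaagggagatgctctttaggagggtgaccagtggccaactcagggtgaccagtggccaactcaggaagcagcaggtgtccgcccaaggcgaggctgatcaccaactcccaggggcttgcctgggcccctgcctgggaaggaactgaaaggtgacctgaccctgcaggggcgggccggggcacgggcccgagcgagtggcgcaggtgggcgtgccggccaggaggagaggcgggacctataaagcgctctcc

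Ranked by FPKM, 18 of the 38 genes held the same place in both libraries, 14 were 1 place apart and 4 were 2 places apart. Irs1 and Pik3ca moved by more: Irs1 was 18th in scKO and 12th in flox/flox, and Pik3ca was 24th in scKO and 28th in flox/flox. The length behind the deposited FPKM was between 0.142 and 2.62 times the merged exon length of the gene, so levels of different genes are comparable only roughly, while a gene's ratio between libraries is not touched by it.

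**Figure D2:**
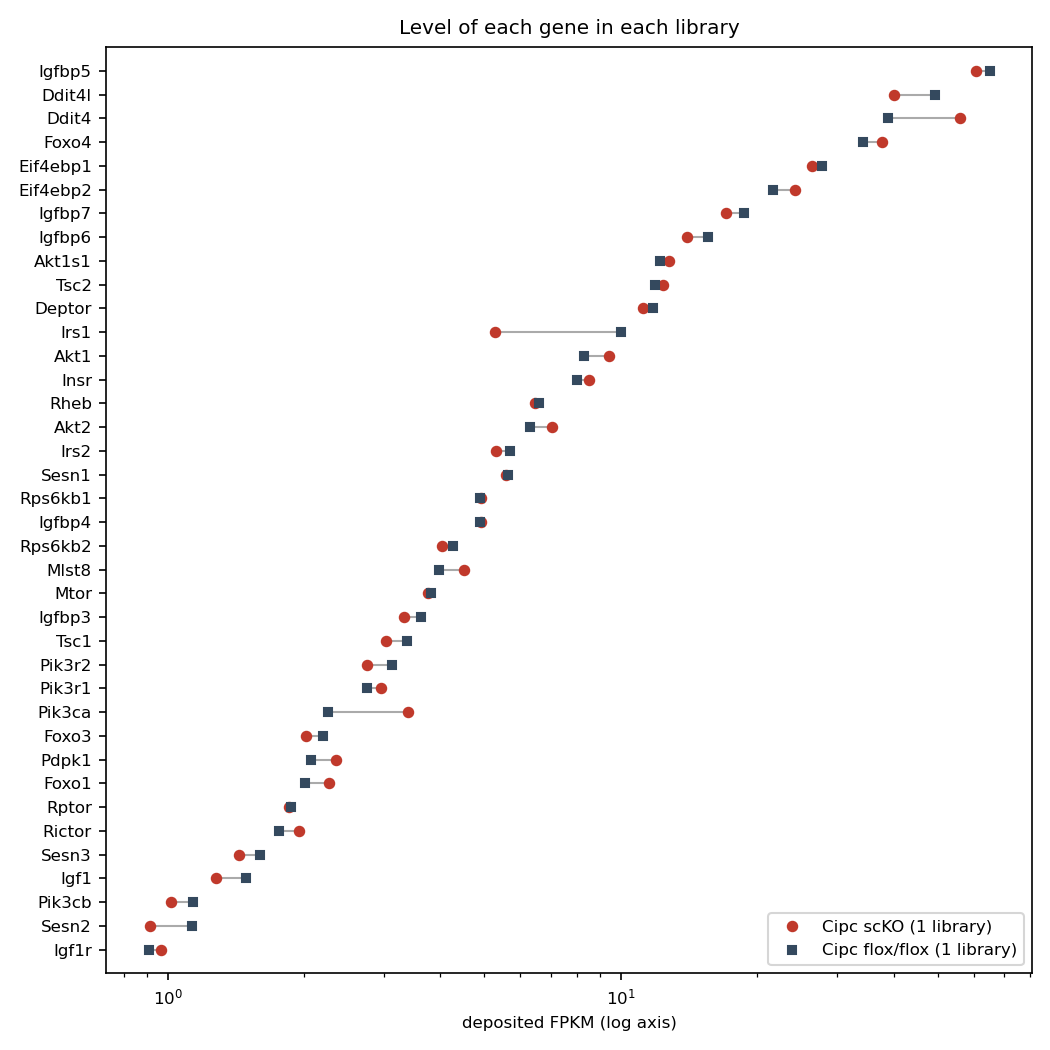
Deposited FPKM of each gene (log axis) in the scKO library (circles) and the flox/flox library (squares), ordered by the flox/flox level. The longest connecting lines are those of Irs1, Pik3ca and Ddit4, followed by Sesn2 and Ddit4l, and Ddit4 lies above Ddit4l in scKO alone.

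The balance between partner genes was compared in 16 pairs. The interval lay above 1 for 4 pairs (Ddit4 to Ddit4l, Pik3ca to Pik3cb, Pik3ca to Pik3r1 and Foxo4 to Foxo3), below 1 for 3 (Irs1 to Insr, Irs1 to Irs2 and Tsc1 to Tsc2) and included 1 for 9. Pairs that share Irs1 or Pik3ca are not independent of each other.

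**Figure D3:**
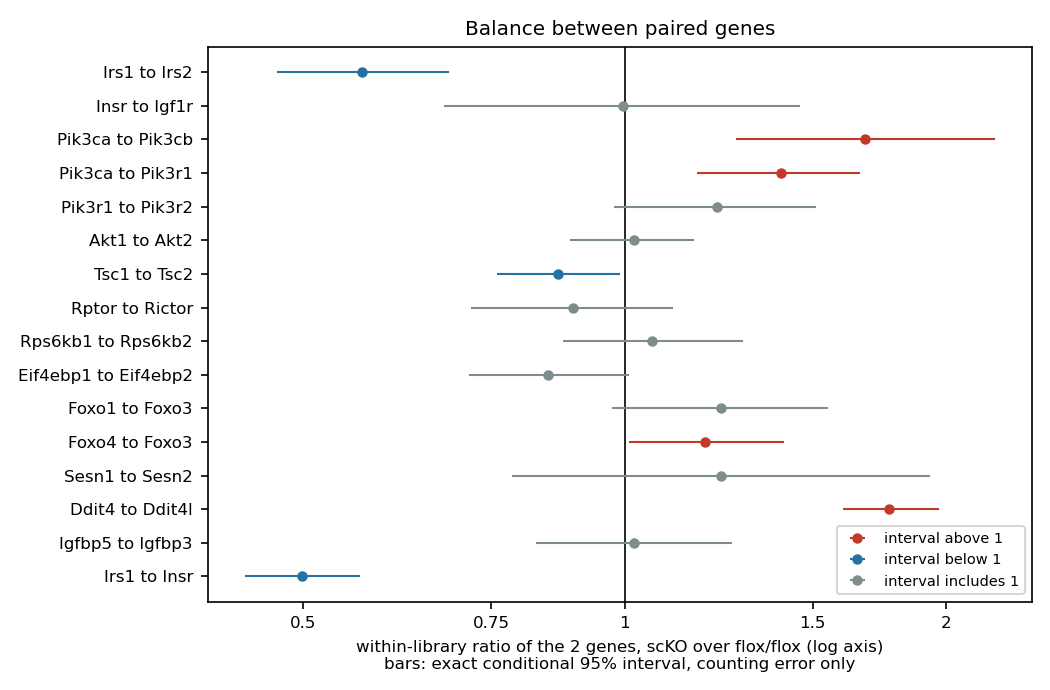
Ratio of 2 genes within the scKO library over the same ratio within the flox/flox library (log axis; bars are exact 95% intervals for counting error). Irs1 to Insr lies farthest to the left at 0.499 and Ddit4 to Ddit4l farthest to the right at 1.77.

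Further genes of the pathway were read from lists, each set beside the 7.60% of all features that were called in either direction. In the list of IGF and insulin ligands, receptors and binding proteins, 1 of 11 genes with enough counts was higher and 1 lower in scKO. Socs2, a feedback inhibitor of growth hormone signalling, had 144 counts in scKO, against 268 in flox/flox (−0.84, −1.15 to −0.55). Stc2, an inhibitor of the protease that frees IGF from its binding proteins, had 76 counts in scKO, against 47 in flox/flox (0.74, 0.20 to 1.3). Igf2 stood at 0.10 (−0.15 to 0.36), and Igfbp1 had 0 counts in both.

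In the PI3K and AKT list 2 of 23 genes were lower and none higher in scKO, with a median log2 ratio of −0.19. Pik3ip1, an inhibitor of the PI3K catalytic subunit, had 233 counts in scKO, against 432 in flox/flox (−0.84, −1.08 to −0.61). Sgk3, a kinase related to AKT, had 75 counts in scKO, against 131 in flox/flox (−0.75, −1.18 to −0.33). Trib2, a pseudokinase gene, stood at −0.40 (−0.65 to −0.15) and Phlpp2, an AKT phosphatase gene, at −0.44 (−0.97 to 0.067).

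In the list of mTOR regulators at the lysosome 3 of 32 genes were higher and 1 lower in scKO. Rragd, which encodes the RagD GTPase that brings mTORC1 to the lysosome, had 3829 counts in scKO, against 1116 in flox/flox (1.83, 1.73 to 1.93). Flcn, whose product folliculin acts on RagC and RagD, had 662 counts in scKO, against 359 in flox/flox (0.93, 0.75 to 1.12). Lamtor3, a subunit of the Ragulator complex that anchors the Rag GTPases, had 333 counts in scKO, against 215 in flox/flox (0.68, 0.43 to 0.94). Rhebl1, a RHEB relative, had 9 counts in scKO, against 37 in flox/flox (−1.93, −3.22 to −0.91). The list's median was −0.021, with 16 of the 32 genes above 0 and 16 below. Nprl2, of the GATOR1 complex that restrains the Rag GTPases, stood at 0.53 (0.093 to 0.98), short of 1.5-fold.

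Among translation initiation genes 1 of 15 was called: Eif4h, a cofactor of the eIF4A helicase, with 1404 counts in scKO, against 934 in flox/flox (0.64, 0.52 to 0.76). Eef2k, the kinase that inhibits elongation factor 2, stood at 0.46 (0.35 to 0.57) and Eif4e, the cap-binding protein gene, at −0.24 (−0.35 to −0.13). None of the 11 AMPK genes was called; Stk11, which encodes the AMPK-activating kinase LKB1, stood at −0.44 (−0.57 to −0.31).

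FoxO target genes did not move one way. Of 29 with enough counts, 2 were called higher and 2 lower in scKO, with a median of 0.018. Intervals lay above 0 for 12 of them, beside 12.8% of all features, and below 0 for 10, beside 12.3%. Deeply counted genes have narrower intervals, so such shares also depend on depth. Among the ubiquitin ligase genes, which serve protein breakdown, Fbxo32 (−0.27, −0.34 to −0.19), Trim63 (−0.25, −0.35 to −0.16) and Fbxo21 (−0.39, −0.70 to −0.092) had intervals below 0. Fbxo31 (0.21, 0.11 to 0.31) had one above 0, and that of Fbxo30 included 0. The cell cycle inhibitor gene Cdkn1a had 126 counts in scKO, against 83 in flox/flox (0.65, 0.24 to 1.07), and the repressor gene Bcl6 had 1152 in scKO, against 762 in flox/flox (0.65, 0.51 to 0.78). Pdk4, which encodes an inhibitory kinase of pyruvate dehydrogenase, had 3804 counts in scKO, against 7344 in flox/flox (−0.90, −0.95 to −0.84), and the stress gene Gadd45b had 166 in scKO, against 264 in flox/flox (−0.62, −0.91 to −0.33). Of 17 targets of ATF4, the amino acid stress factor, 2 were lower and none higher: Chac1, a glutathione-degrading enzyme gene, at −0.71 (−0.84 to −0.58) and Mthfd2, a mitochondrial folate enzyme gene, at −0.71 (−1.32 to −0.13). Intervals in the ATF4 list lay below 0 for 3 of the 17 genes, beside 12.3% of all features, and above 0 for none, beside 12.8%. The ATF4 list also holds the axis genes Sesn2 and Eif4ebp1, and it counts the gene Atf4 itself (−0.047, −0.13 to 0.037).

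The list of 21 glucocorticoid receptor targets holds the axis genes Ddit4, Pik3r1, Foxo1 and Foxo3. It also counts the receptor gene itself, Nr3c1 (0.047, −0.063 to 0.16). Of the 21, 6 were called higher and 1 lower in scKO (33.3%, beside 7.60% of all features), with a median of 0.14. The higher ones were the chaperone gene Fkbp5 (571 counts in scKO, against 325 in flox/flox; 0.86, 0.67 to 1.07), the transcription factor gene Cebpd (543 in scKO, against 305 in flox/flox; 0.88, 0.68 to 1.09), the metallothionein genes Mt1 (315 in scKO, against 176 in flox/flox; 0.89, 0.62 to 1.17) and Mt2 (166 in scKO, against 104 in flox/flox; 0.72, 0.36 to 1.09), the glutamine synthetase gene Glul (7731 in scKO, against 5100 in flox/flox; 0.65, 0.60 to 0.70) and Bcl6. Pdk4 was the lower one. Intervals lay above 0 for 10 genes of the list, beside 12.8% of all features. They lay below 0 for 4 (Pdk4, Dusp1, Mstn and Per1), beside 12.3%, and included 0 for 7. Those of the axis genes Pik3r1, Foxo1 and Foxo3 were among the intervals that included 0. The list was drawn up with earlier values of Ddit4, Mt1, Mt2 and Pdk4 from these libraries known, so its share is a description. Of 16 p53 targets 2 were higher and none lower, Cdkn1a and Trp53inp1 (510 counts in scKO, against 331 in flox/flox; 0.67, 0.47 to 0.88). Sesn1, Sesn2 and Ddit4, which belong to that list, are given above. Intervals in the p53 list lay above 0 for 6 genes and below 0 for 3. Among the latter were Eda2r at −0.58 (−0.88 to −0.29) and the p53 gene Trp53 at −0.44 (−0.76 to −0.13).

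**Figure D4:**
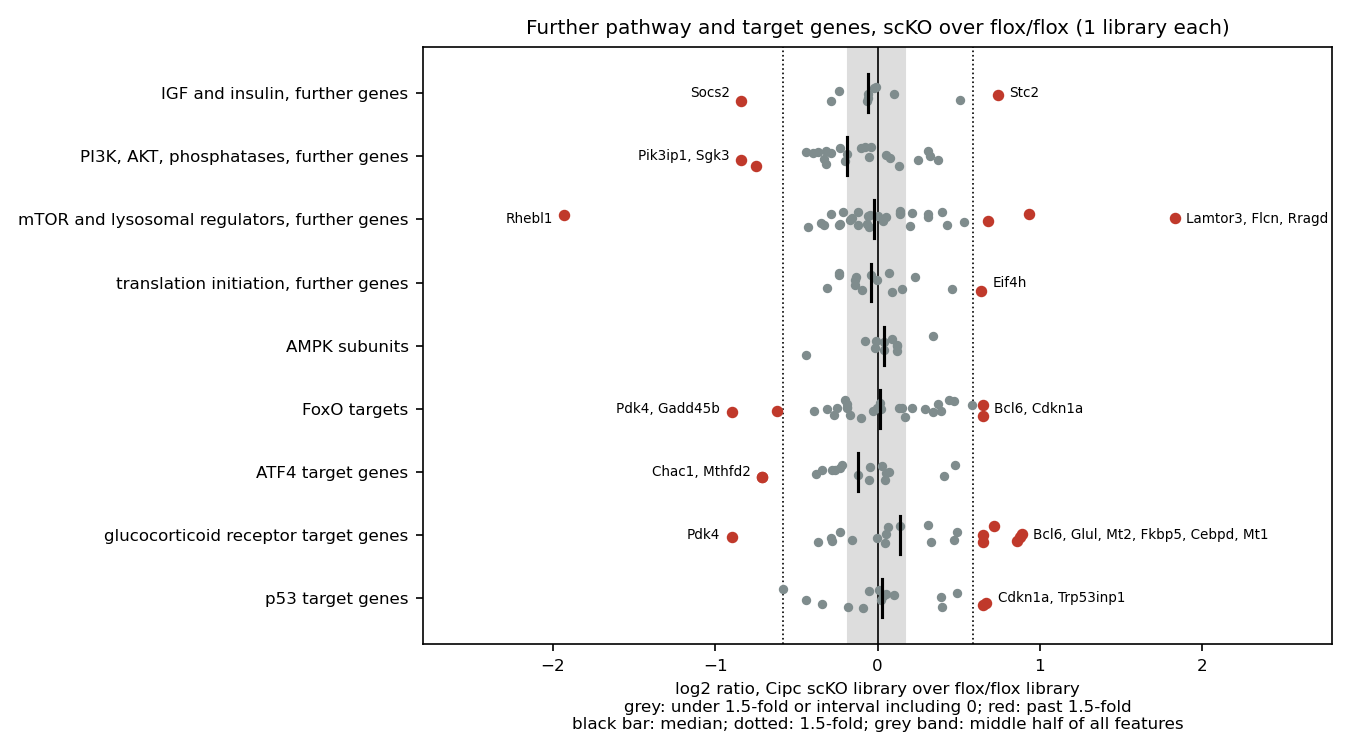
Log2 ratio of scKO over flox/flox for further genes of the pathway and for target gene lists (x axis; each point is a gene, red and named where past 1.5-fold, black bars are medians, the grey band runs from the lower to the upper quartile of all features). Rragd at 1.83 and Rhebl1 at −1.93 lie farthest out, and the glucocorticoid receptor list has 6 named genes on the right. All lists were chosen with earlier results of these data known.

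Markers of the other cells of a whole muscle were read in the same way. The satellite cell list had 1 of 12 genes called, Pax7, lower with 39 counts in scKO, against 69 in flox/flox (−0.76, −1.38 to −0.19). The list's median log2 ratio was 0.11, with 8 genes above 0 and 4 below. Its summed level was 176 CPM in scKO and 165 in flox/flox, of which Pax7 made up 2.82 CPM in scKO and 4.69 in flox/flox. Itga7 alone made up 64.9 CPM in scKO and 63.1 in flox/flox. Notch3, which is also in the smooth muscle and pericyte list, made up 26.3 CPM in scKO and 22.3 in flox/flox. No endothelial marker (0 of 14), adipocyte marker (0 of 12) or muscle fibre marker (0 of 12) was called. Of macrophage markers 1 of 12 was called, C1qc, lower with 72 counts in scKO, against 112 in flox/flox. Of smooth muscle and pericyte markers 2 of 12 were called, both lower and thinly counted. They were Cnn1 (4 counts in scKO, against 18 in flox/flox) and Higd1b (15 in scKO, against 30 in flox/flox). Of Schwann cell markers 1 of 8 was called, Sox10, lower with 9 counts in scKO, against 27 in flox/flox. The median log2 ratios of these lists were, in that order, −0.028, 0.10 and 0.015. Of tendon markers 1 of 7 was higher (Kera) and 1 lower (Cilp2), and of erythroid markers 1 of 5 was lower (Alas2). All 5 erythroid markers had intervals below 0, beside 12.3% of all features. Their log2 ratios lay between −0.59 and −0.32, with a summed level of 114 CPM in scKO and 144 in flox/flox. Of the fibro-adipogenic progenitor markers 1 of 13 was called, the collagen gene Col3a1, lower with 1470 counts in scKO, against 2335 in flox/flox (−0.62, −0.71 to −0.52). Summed endothelial markers stood at 594 CPM in scKO and 508 in flox/flox, and summed fibre markers at 137891 CPM in scKO and 144992 in flox/flox.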

How the data were processed

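RNA sequencing libraries of gastrocnemius muscle were analysed from the deposited gene counts, whole numbers that the authors made per Ensembl gene with no normalization per the file headers. FPKM values from the authors' deposited tables (unit per the file headers) were used for levels between genes; the length they imply agreed between libraries to within 0.00414%. CASAVA, HISAT2 (2.0.4), StringTie (1.3.0) and the build GRCm38 are named, without roles, per the submitters' processing notes; annotation release, strand and multi-mapping settings are not given in the sources used here, and 12 of the 38 genes share exon bases with an annotated gene on the opposite strand. Positions and merged exons came from GENCODE M21, on the same build, promoter sequences from RefSeq (GRCm38.p6), and names for 34267 of 34745 identifiers from a reference table.

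Library sizes were scaled with TMM (edgeR 4.0.16, R 4.3.3); log2 ratios used a prior count of 0.5. Intervals and limits cover counting error only; 0 counts allow up to 3 counts, 0.217 CPM in scKO and 0.204 in flox/flox. No p-value was computed. Alternatives were total counts, DESeq2 1.42.0 size factors, total counts without mitochondrially encoded genes, FPKM, a prior count of 5, summed counts of at least 100 or any, and other call rules; merged exon lengths were added after seeing the data. The ratio step was tested on simulated data. Members and the 19 further lists were chosen with earlier results of these data known. Named genes were all members, Cipc, up to 4 genes per list with the largest ratios among those with a summed count of at least 100, and every called gene of a list with up to 5; genes next to or overlapping a member, and any further gene named, were chosen after their values were seen. Python 3.11.15, numpy 2.4.6, scipy 1.17.1, pandas 2.3.3 and matplotlib 3.10.9 were used.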

Additional observations from a re-analysis of the deposited data

How the results depend on the processing

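No paired analysis was possible because each genotype has 1 library, and for the same reason no library could be left out. The count of members called lower was 0 at the 2-fold rule, since Irs1 was 1.94-fold lower in scKO. With an interval excluding 1 at any fold as the rule, 4 members were higher and 6 lower in scKO, beside 12.8% and 12.3% of all features. The 190 log2 ratios recomputed under 5 other settings (scalings, FPKM and prior count) all lay within the members' counting intervals. None of a called member changed sign. Rps6kb1 and Igfbp4, both near 0, changed sign under total counts, with or without mitochondrially encoded genes, and on the FPKM scale. Those settings moved the median of all features by 0.038 and the members' median to −0.021, while DESeq2 size factors put the members' median at −0.068. A scaling moves all genes nearly alike, and total counts, with or without mitochondrially encoded genes, and FPKM gave the same shift. The 190 values are therefore not separate checks. Scaling also decided which intervals near 0 excluded it: 7 lay above 0 and 4 below with total counts, and 3 above and 6 below with DESeq2 size factors. The shares of all features under those scalings are not given here. With lengths of merged exons in place of those behind the FPKM, added after seeing the data, level ratios between genes moved more: in scKO, Insr to Igf1r was 25.1 in place of 8.79, Rptor to Rictor 2.61 in place of 0.948, Tsc1 to Tsc2 0.577 in place of 0.246 and Irs1 to Irs2 1.56 in place of 0.995. The ratio of Akt1 to Akt2 in flox/flox was 0.988 in place of 1.32, and the order of Ddit4 and Ddit4l was kept in each library. Depth limits Igf1r, Sesn2 and Sesn3 most, with 43 to 60 counts per library.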
